A study of Mus musculus with 4 samples.

Results

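The genes described here are 6 transcription factor genes of neurons and neuroendocrine cells, *Insm1*, *Neurod1*, *Pax6*, *Lhx2*, *Gsx2* and *Foxb1*, out of 1577 genes in the deposited table. They were measured by RNA-seq in 46C mESCs, which carry GFP at the *Sox1* locus, after 24 h in serum-containing medium. The groups were untreated control cells (NT, n = 2) and cells given the PKC inhibitor Go6983 at 5 μM (n = 2). All 4 samples come from this one line, and whether LIF was present during the 24 h, or whether the replicates were separate cultures, is not given in the sources used here. Only genes picked by the authors as changed between these groups are listed, and the smallest absolute difference in the table was 1.00 on the log2 scale. The 6 genes were then chosen from the table by their symbols with their measured change between NT and Go6983 known. Their own values are therefore a description, and no test is given for them. By gene ID, 1572 of the 1577 genes, and all 6 of these, had a symbol in GENCODE M21.

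A value here is a normalized count, a read count divided by 1 size factor per library, which was deposited as log2(normalized count + 1). Undoing the log2 and the added 1 gave values within 0.05 of a whole number of reads for 100% of genes in each sample. Between 859777 and 1054236 reads were recovered per sample for the 1577 genes, and the total depth is unknown. Intervals given below are exact Poisson 95% intervals and cover counting error only. In bulk RNA, fewer cells that express a gene and less RNA in each of them cannot be told apart.

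Neural and endocrine cells share part of one regulatory programme. Proneural basic helix-loop-helix (bHLH) factors of the neurogenin, NeuroD and atonal families drive precursors to leave the cycle and differentiate, and Notch ligands that they induce hold back neighbouring cells. Insm1, a SNAG-domain zinc finger repressor, and Neurod1, a bHLH factor that binds E-boxes, act late in this programme in neuronal precursors, pancreatic islets and the gut. Pax6 carries a paired domain and a homeodomain and is needed for the eye, the forebrain and islet cells. Lhx2, a LIM homeodomain factor, acts in the eye field and the cortex. Gsx2, a homeodomain factor, patterns the ventral forebrain. Foxb1, a forkhead factor, marks the hypothalamus and caudal neural tube.

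*Lhx2*, *Neurod1*, *Pax6* and *Insm1*, 4 of the 6 genes, lie on chromosome 2, as did 7.63% of the listed genes with a chromosome. In GENCODE M21 on GRCm38, *Insm1* (ENSMUSG00000068154) lies at chr2:146221921-146225020 on the plus strand in 1 exon. *Neurod1* (ENSMUSG00000034701) is at chr2:79452521-79456751 on the minus strand, *Pax6* (ENSMUSG00000027168) at chr2:105668900-105697364 and *Lhx2* (ENSMUSG00000000247) at chr2:38339281-38369733, both on the plus strand. *Gsx2* (ENSMUSG00000035946) is at chr5:75075601-75077893 on the plus strand and *Foxb1* (ENSMUSG00000059246) at chr9:69757710-69760940 on the minus strand. The table gives no coordinates of its own, and the submitters' processing notes name mm9, so these positions serve only to identify the genes.

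Promoter windows of RefSeq on GRCm38.p6, from 250 bases before to 50 after a start site, were held for *Neurod1*, *Pax6*, *Lhx2* and *Gsx2*, with 6 start sites in all. The window of the first start site of each gene is shown so that the 2 genes that were lower can be set beside the 2 that were higher. Each reads 5′ to 3′ on the strand of the gene. Capitals mark matches on either strand to any of 5 motifs. The E-box, spelled CANNTG, is bound by bHLH factors such as Neurod1. The TATA box, TATAAA, binds the general transcription machinery near the start site. The CCAAT box is spelled as its name and is bound by the factor NF-Y. The GC box, GGGCGG, is bound by factors of the Sp family, and the cAMP response element, TGACGTCA, by CREB and its relatives. The windows are chr2:79456587-79456886 for *Neurod1*, chr2:105668646-105668945 for *Pax6*, chr2:38339031-38339330 for *Lhx2* and chr5:75075351-75075650 for *Gsx2*.
Neurod1: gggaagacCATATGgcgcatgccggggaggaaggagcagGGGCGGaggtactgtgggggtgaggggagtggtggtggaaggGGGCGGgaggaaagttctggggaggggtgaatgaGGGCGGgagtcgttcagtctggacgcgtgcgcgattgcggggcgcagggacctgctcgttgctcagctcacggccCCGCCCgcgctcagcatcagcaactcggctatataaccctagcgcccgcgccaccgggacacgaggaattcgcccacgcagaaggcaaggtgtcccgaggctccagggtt
Pax6: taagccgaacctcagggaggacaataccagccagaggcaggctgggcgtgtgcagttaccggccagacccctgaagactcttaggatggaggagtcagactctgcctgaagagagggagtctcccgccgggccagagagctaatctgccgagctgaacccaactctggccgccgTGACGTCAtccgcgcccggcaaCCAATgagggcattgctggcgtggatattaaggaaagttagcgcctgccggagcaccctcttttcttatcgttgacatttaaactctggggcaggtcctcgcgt
Lhx2: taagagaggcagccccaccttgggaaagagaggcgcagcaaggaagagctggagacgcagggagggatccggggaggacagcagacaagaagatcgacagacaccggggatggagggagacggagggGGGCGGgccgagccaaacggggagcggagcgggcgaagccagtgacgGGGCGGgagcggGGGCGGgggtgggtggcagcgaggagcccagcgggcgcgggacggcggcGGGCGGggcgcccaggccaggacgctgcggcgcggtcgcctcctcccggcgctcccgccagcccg
Gsx2: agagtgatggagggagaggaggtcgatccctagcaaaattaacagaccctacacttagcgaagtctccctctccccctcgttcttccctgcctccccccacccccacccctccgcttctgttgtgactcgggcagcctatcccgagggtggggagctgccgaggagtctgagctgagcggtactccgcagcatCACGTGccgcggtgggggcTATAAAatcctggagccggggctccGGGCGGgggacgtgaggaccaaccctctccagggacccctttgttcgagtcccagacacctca

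All of these 4 windows held more CpG than the median window, with 26 CpG in *Neurod1*, 18 in *Pax6*, 34 in *Lhx2* and 17 in *Gsx2*, against a median of 7 over all 32851 windows. Fewer CpG were found in 83.1%, 70.3%, 92.3% and 68.6% of all windows, in the same order, so such counts are common. *Neurod1* and *Lhx2* each held 4 GC boxes, a motif found in 35.7% of all windows. The *Pax6* window held a cAMP response element 76 bases before the start site, a motif of 1.79% of windows, and a CCAAT box, a motif of 37.4%. *Gsx2* had a TATA box 38 bases before its start site, as 13.6% of windows had, a GC box, and the E-box CACGTG. The *Neurod1* E-box was CATATG, and E-boxes were found in 72.3% of windows. The other start site of *Lhx2* held an E-box that was also the only match to CAGATG, a form bound by NeuroD factors, which 17.2% of windows held, and that of *Pax6* held an E-box. No window of the 6 matched TAATTA, a homeodomain core (5.29% of windows), TGTTTA, a forkhead core (13.4%), or TGANTCA, the AP-1 site (7.81%). A match is only a match of letters in these windows.

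*Insm1* and *Neurod1* were the most abundant of the 6 genes in NT cells, and both were lower in Go6983-treated cells. *Insm1* had 525 and 387 normalized counts in NT replicates 1 and 2, and 29.9 and 11.8 in Go6983 replicates 1 and 2. Both NT samples lay above both Go6983 samples. The groups did not overlap for any of the 6 genes, nor did they for 1572 of the 1577 listed genes, all picked as changed, so this is not a trait of the 6. The means were 456 ± 97.5 and 20.8 ± 12.8 (SD, n = 2 each), a 21.9-fold lower mean and a log2 difference of -4.51. The Go6983 values rest on 32 and 11 reads, with intervals from 20.4 to 42.2 and from 5.88 to 21.1 normalized counts. The Go6983 replicates of *Insm1* differed by 1.27 on the log2 scale, against a median of 0.25 over all listed genes.

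*Neurod1* had 1459 and 1270 normalized counts in NT cells and 405 and 325 in the Go6983 samples. Both NT samples were again the higher, with means of 1365 ± 134 and 365 ± 56.4 (SD, n = 2 each), a 3.74-fold lower mean and a log2 difference of -1.90. All 4 values rest on 304 reads or more. In contrast to *Insm1*, *Neurod1* kept a level in treated cells that was well above those of the other 5 genes per kb of exon. In the annotation it shares 201 exonic bases with *Cerkl* on the same strand and 154 with *Gm26755* on the other strand, neither of which is in the table. The sources used here do not say whether counting used strand, so reads in shared bases cannot be assigned.

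*Pax6* was measured at 78.6 and 58.2 normalized counts in NT cells and 27.1 and 23.5 in Go6983-treated cells. Its means were 68.4 ± 14.4 and 25.3 ± 2.49 (SD, n = 2 each), a 2.70-fold lower mean and a log2 difference of -1.39, close to the median of all lower genes, -1.49. The intervals of NT replicate 2, from 44.1 to 75.5, and Go6983 replicate 1, from 18.1 to 38.9, did not meet. They cover counting error only, and *Pax6* had been picked as changed on these samples, so this is a description and no test. The antisense gene *Pax6os1* overlaps *Pax6* but shares 0 exonic bases with it. *Wt1*, a zinc finger gene 495 kb away and the only other listed gene within 500 kb, had 443 and 185 normalized counts in NT cells and 30.8 and 24.6 in the Go6983 samples. It passed the limma fit described below with an adjusted p of 0.00114, and missed it without Go6983 replicate 1 (0.0601) or 2 (0.0709).

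*Foxb1* had 23.9 and 19.4 normalized counts, or 24 and 19 reads, in NT cells, and 0 reads in both Go6983 samples. For a ratio, each count of 0 was set to 3 reads per library, or 2.80 and 3.21 normalized counts. The exact intervals of these samples reach further, to 3.44 and 3.95. The NT mean, 21.6 ± 3.15 (SD, n = 2), was 7.20-fold above the mean of that setting. This ratio leaves out the counting error in NT cells and is not a lower bound. The NT intervals of *Foxb1* ran from 15.3 to 35.5 and from 11.7 to 30.3. Its log2 difference on the deposited scale depends on the added 1 and is not used as a size. *Foxb1* was 1 of 29 listed genes with 0 reads in both Go6983 samples. It shares 418 exonic bases with the antisense gene *B230323A14Rik*, so its reads may include those of the other strand.

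The other two genes were higher in Go6983-treated cells. *Gsx2* had 11.9 and 16.3 normalized counts in NT cells and 106 and 118 in the Go6983 samples. Its means were 14.1 ± 3.12 and 112 ± 8.01 (SD, n = 2 each), a 7.93-fold higher mean and a log2 difference of 2.91. *Lhx2* had 30.8 and 36.8 normalized counts in NT cells and 92.4 and 78.1 in the Go6983 samples. Its means were 33.8 ± 4.21 and 85.3 ± 10.1 (SD, n = 2 each), a 2.52-fold higher mean and a log2 difference of 1.31, near the median of all higher genes, 1.42. Both NT values of *Gsx2* rest on few reads, 12 and 16, while its Go6983 values rest on 114 and 110. *Gm27197* and *Gm13584*, antisense genes within *Lhx2*, share 0 exonic bases with it.

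**Figure D1:**
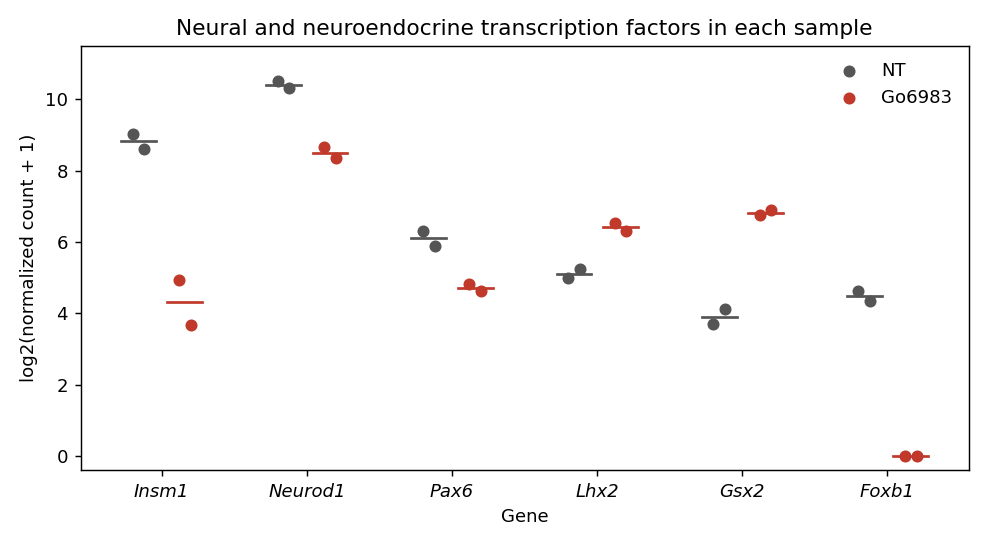
Levels of the 6 transcription factor genes on the log2(normalized count + 1) scale, with 2 grey points for NT and 2 red points for Go6983, 1 per sample; horizontal lines are group means. *Insm1*, *Neurod1*, *Pax6* and *Foxb1* sit lower in the Go6983 samples and *Lhx2* and *Gsx2* higher, without overlap, as in 1572 of the 1577 listed genes, and both *Foxb1* points of Go6983 are at 0.

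Per kb of annotated exon, which allows a rough comparison of levels between genes, *Neurod1* led in NT cells at 535 and 465 normalized counts per kb, followed by *Insm1* at 169 and 125. The remaining 4 genes lay close together in NT cells, between 4.98 and 9.82 per kb, and neighbours in this order overlapped. *Gsx2* (7.17 and 9.82), *Lhx2* (7.02 and 8.37) and *Foxb1* (8.0 and 6.51) could not be ordered, and *Pax6* (6.72 and 4.98) overlapped with *Foxb1*. In Go6983-treated cells the order was *Neurod1* (148 and 119 per kb), *Gsx2* (63.9 and 70.7), *Lhx2* (21.0 and 17.8), *Insm1* (9.64 and 3.80), *Pax6* (2.32 and 2.01) and *Foxb1* (0), and none of these neighbours overlapped. So *Insm1* went from the second place to the fourth and *Gsx2* took the second. The order in Go6983-treated cells is that of the sample values and leaves out counting error. The lower *Insm1* value rests on 11 reads, so its place above *Pax6* is uncertain. The exon lengths are those of GENCODE M21, and the authors' annotation is not given in the sources used here. Exons of all annotated transcripts of a gene were merged, giving 11694 bases for *Pax6* and 3100 for *Insm1*. A merged length can exceed that of the RNA present and lower the value per kb, so the place of *Pax6* is uncertain.

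**Figure D2:**
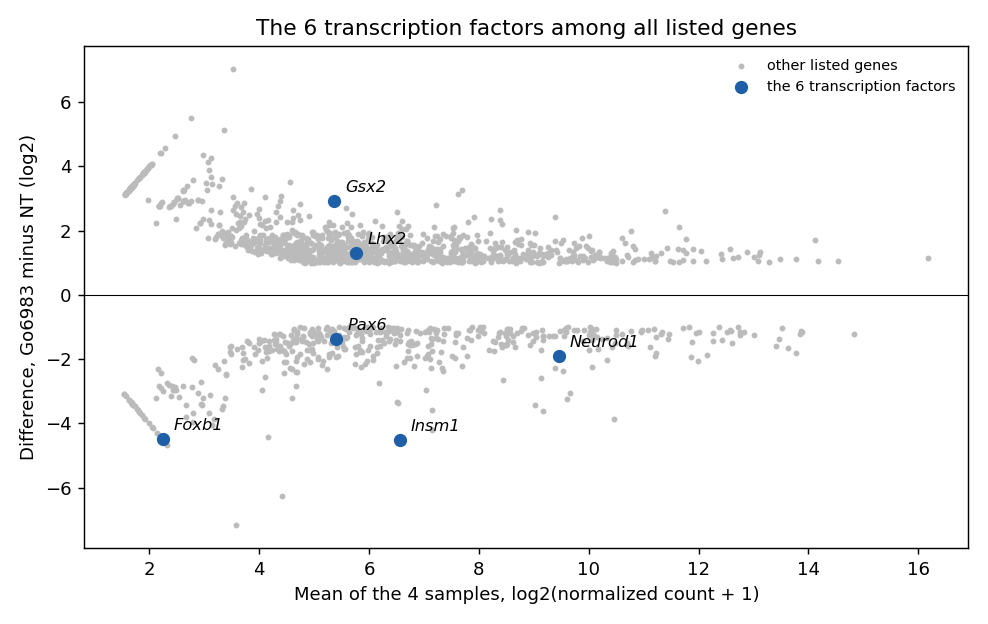
Each point is 1 of the 1577 listed genes, at its mean over the 4 samples, log2(normalized count + 1), on the x axis and its difference, Go6983 minus NT (log2), on the y axis; the 6 genes are in blue. *Insm1* stands below most genes of its level, *Pax6* and *Lhx2* lie among the many genes with differences near 1 to 2, the empty band around 0 shows the authors' selection, and *Foxb1* lies on the line of genes with 0 reads in one group, where the value depends on the added 1.

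Each gene other than *Foxb1* was also matched to the 2 genes of the table whose 4 sample values, taken relative to the NT mean on the log2 scale, were nearest by Euclidean distance over the 4 samples, among the 1044 genes whose higher group averaged 50 normalized counts or more. *Neurod1* was closest to *Enpp3*, an ectonucleotide pyrophosphatase gene (distance 0.0243), and to *Mycn*, a bHLH factor gene (0.0392). *Mycn* had 9303 and 8283 normalized counts in NT cells and 2637 and 2146 in Go6983-treated cells. *Insm1* had no such near match, with *Olfr307* (0.63) and *Pou3f1* (1.05) as its nearest. *Pax6* was nearest to *Kbtbd11* (0.0893) and *Gfra1* (0.14), *Lhx2* to *Shisa8* (0.0851) and *Gm43328* (0.0910), and *Gsx2* to *Gm853* (0.36) and *Hspb7* (0.37). No match is given for *Foxb1*, whose log2 values in Go6983-treated cells depend on the added 1. With 2 samples a group, these distances mostly rank genes by the size of their change.

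Of a chosen list of other neural transcription factors, most of those in the table were lower. Like the lists below, their list was chosen with earlier results of these data known, so its counts are a description. For these genes, the limma fit over all 1577 genes was read at an adjusted p below 0.05. This called 68.8% of listed genes higher and 29.7% lower, since every listed gene had been selected as changed on these samples. The p-values then set each difference against the spread between the same samples that the selection used. They do not test whether a gene changed, may be too small, and are read only as a description. Of 126 further transcription factors of neural development, 16 were in the table, of which 13 fell and 3 rose, with a median log2 difference of -1.34 against 1.21 over all listed genes. Among the lower ones, *Pou3f1* and *Gbx2* are also named by the authors among genes of stem cell pluripotency, so the list is not of neural genes only. Nor does the list hold every such factor, and those outside it were not counted. *Cux2*, *Zfp521* and *Dach1*, which are among those outside it, rose. The 110 genes of the list that the table lacks were not analysed here, nor were the genes missing from the lists below. Without 1 library at a time, 10 or 11 were called lower and 0 to 2 higher, with 0 higher without NT replicate 1, Go6983 replicate 1 or Go6983 replicate 2.

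*Pou3f1*, the POU factor Oct6 of epiblast and glia, fell the most of these, from 5877 and 4849 normalized counts in the NT samples to 457 and 299.7 in the Go6983 samples. *Pax8*, a paired box gene of thyroid, kidney and hindbrain, went from 399.8 and 345 to 109 and 81.3. *Bcl11a*, a zinc finger repressor of the cortex and blood, fell from 586 and 603 to 185 and 203, and the homeobox gene *Otx2*, needed for the forebrain, from 9295 and 8467 to 3632 and 3150. The Iroquois genes *Irx5* and *Irx3* had log2 differences of -1.58 and -1.17, and the forkhead genes *Foxj1*, of ciliated cells, and *Foxd3*, of the neural crest and the epiblast, -1.29 and -1.23. The calls of these 8 genes (limma adjusted p from 0.000375 to 0.00294) held without any 1 library.

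*Gsx1*, the closest relative of *Gsx2*, was measured at 40.8 and 27.6 normalized counts in NT cells and 6.53 and 9.63 in the Go6983 samples, the opposite direction to *Gsx2*. Its limma adjusted p was 0.00680, and 0.0888 and 0.0640 without Go6983 replicates 1 and 2. *Atoh1*, the atonal bHLH gene of hair cells and cerebellar granule cells, went from 23.9 and 27.6 to 7.47 and 4.28, with an adjusted p of 0.00632, and 0.0610 without Go6983 replicate 2. *Gbx2* had an adjusted p of 0.00201, and 0.0536 without Go6983 replicate 1. *Scrt2*, a zinc finger gene of neurons, missed the threshold without any 1 of the 4 libraries (adjusted p from 0.0926 to 0.20). The 3 genes of this list that rose had few reads, which need not hold for factors outside it. *Bhlhe22* went from 16.9 and 38.8 to 61.6 and 64.2, and *Foxd1* from 16.9 and 28.6 to 46.7 and 51.4. *Nr2f2* went from 25.9 and 24.5 to 54.1 and 51.4. *Bhlhe22* and *Foxd1* lost their calls without NT replicate 1 (adjusted p = 0.107 and 0.117), Go6983 replicate 1 (0.227 and 0.174) or Go6983 replicate 2 (0.242 and 0.203), and *Nr2f2* without any 1 library (from 0.0611 to 0.130).

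**Figure D3:**
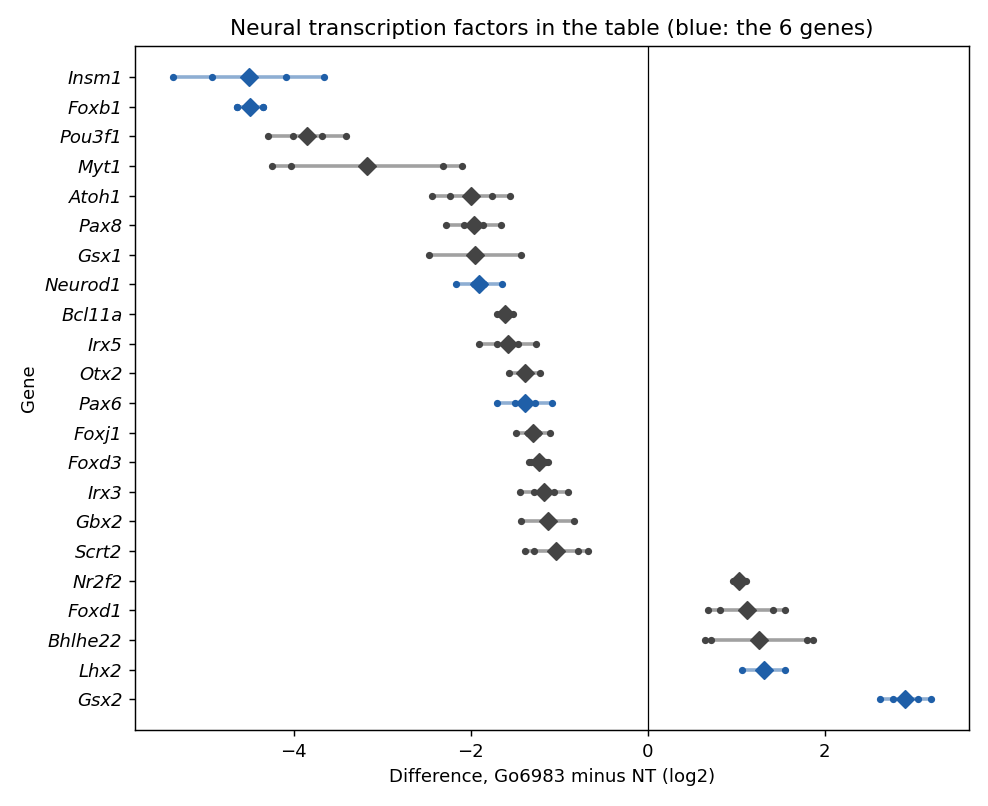
Difference, Go6983 minus NT (log2), for the 16 genes of the neural transcription factor list that are in the table (grey) and the 6 genes (blue). Diamonds are differences of group means, small points are the 4 differences between single samples, and bars span them. Of the 16, 13 lie left of 0 and 3 right of it, and *Gsx1* and *Gsx2* lie on opposite sides; the place of *Foxb1* depends on the added 1.

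Relatives of the 6 genes within their own families went both ways, while 68.8% of all listed genes were called higher and 29.7% lower. Of 15 further genes of the NeuroD, neurogenin and related bHLH families, 4 were in the table, of which 3 fell, *Neurog3*, *Atoh1* and *Bhlha15*, and *Bhlhe22* rose. The Go6983 values of *Neurog3* (5 and 1 reads) and *Atoh1* (8 and 4 reads) rest on few reads. *Bhlha15*, known as Mist1 in secretory cells, went from 337 and 321 to 151 and 158 normalized counts (limma adjusted p = 0.00114). Of 8 other *Pax* genes, *Pax8* fell and *Pax9* rose, with 0 reads in both NT samples and 19.6 and 10.7 normalized counts in the Go6983 samples. Of 43 other forkhead genes 6 were in the table, and 3 rose and 3 fell. The 3 lower ones, *Foxi3*, *Foxj1* and *Foxd3*, had 350 normalized counts or more in every sample, and the 3 higher ones were *Foxd1*, *Foxp2* and *Foxo6*, of which *Foxp2* lost its call without any 1 library (adjusted p from 0.0530 to 0.0715) and *Foxo6* without NT replicate 1 (0.0845), NT replicate 2 (0.0661) or Go6983 replicate 1 (0.0809). None of 17 other LIM homeobox and LIM cofactor genes was in the table.

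Regulators that act with *Insm1* and *Neurod1* in islet and gut endocrine cells were few in the table. *Neurog3*, *Myt1* and *Etv1* are described here, and no count, median or direction is given for this list, since it is not reported in full. *Neurog3*, the bHLH gene that starts the endocrine programme, went from 35.8 and 26.6 normalized counts in the NT samples to 4.67 and 1.07 in the Go6983 samples, or 5 and 1 reads (limma adjusted p = 0.00368, and 0.0502 without NT replicate 1). *Myt1*, a zinc finger gene of neural and endocrine precursors, went from 17.9 and 15.3 to 2.80 and 0, or 3 and 0 reads (adjusted p = 0.00663, and 0.0750 and 0.0678 without NT replicates 1 and 2). *Etv1*, an ETS factor gene, fell from 3057 and 2781 to 1420 and 1302.

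Genes of the neuroendocrine secretory apparatus did not share 1 direction. Of a list of 32 such genes 8 were in the table, and 5 fell and 3 rose. Over all listed genes, 68.8% were called higher and 29.7% lower. Such genes outside the list were not counted, *Cadps2*, which rose, among them. *Pcsk2*, the prohormone convertase of secretory granules, changed the most, from 64.6 and 52.1 normalized counts in the NT samples to 7.47 and 13.9 in the Go6983 samples (limma adjusted p = 0.00344, and 0.0598 without Go6983 replicate 1). *Syt13*, a synaptotagmin gene, fell from 953 and 829 to 432 and 310, and *Vgf*, which encodes a granule peptide precursor, from 1069 and 1112 to 519 and 501. *Th*, the rate-limiting enzyme of catecholamine synthesis, had a log2 difference of -1.25 (adjusted p = 0.00849, and 0.0552, 0.0840 and 0.0765 without NT replicate 2, Go6983 replicate 1 and Go6983 replicate 2). *Cadps*, a priming factor of dense-core vesicles, rose from 100.4 and 94.0 to 248 and 246, while *Scg3*, a secretogranin gene, went from 13.9 and 23.5 to 50.4 and 80.3 and lost its call without NT replicate 1 (adjusted p = 0.0735), Go6983 replicate 1 (0.0829) or Go6983 replicate 2 (0.135). *Cplx2*, a complexin gene that rose, lost its call without Go6983 replicate 1 (adjusted p = 0.0856) or 2 (0.112), and *Syt4*, a synaptotagmin gene that fell, without NT replicate 1 (0.0533) or 2 (0.0645).

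*Dll1*, *Dll3* and *Dll4*, which encode the Delta-like ligands of the Notch pathway, fell with Go6983. They were the 3 genes in the table from a list of 28 Notch pathway genes, and 29.7% of all listed genes were called lower. That list does not hold every gene of the pathway, and genes outside it were not counted. *Dll1* went from 2401 and 2244 normalized counts in the NT samples to 611 and 394 in the Go6983 samples (limma adjusted p = 0.000484), a call that held without any 1 library. *Dll3*, a member that acts mostly inside the cell, went from 401 and 379 to 142 and 222 (adjusted p = 0.00608, and 0.0725 and 0.0646 without NT replicates 1 and 2), and *Dll4* from 37.8 and 43.9 to 8.40 and 4.28 (adjusted p = 0.00302, and 0.0541 without Go6983 replicate 2). The other 25 genes of the list, the receptors among them, were not analysed here.

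**Figure D4:**
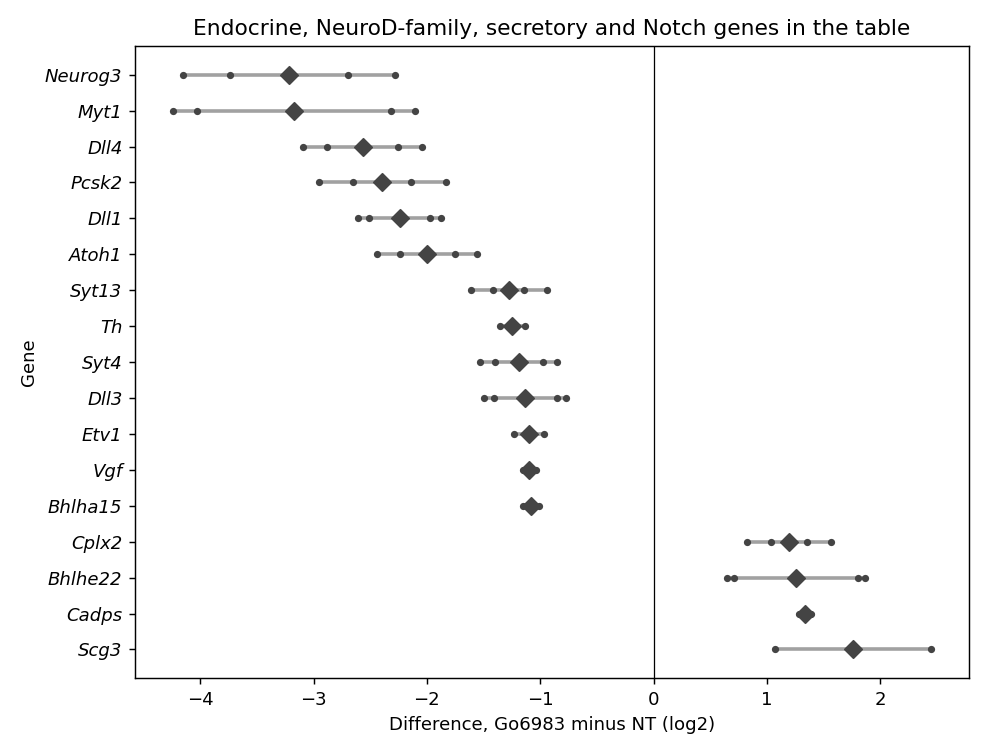
Difference, Go6983 minus NT (log2), for genes of 4 lists in the table, the first not in full, which are islet and enteroendocrine transcription factors, NeuroD-family genes, secretory genes and Notch genes; diamonds are differences of group means, small points the 4 pairs of samples, and bars span them. *Neurog3*, *Myt1*, *Dll4*, *Pcsk2* and *Dll1* lie farthest to the left, and the 4 genes to the right of 0 are *Cplx2*, *Bhlhe22*, *Cadps* and *Scg3*.

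No listed gene near the 6 overlapped them on the chromosome. Within 500 kb, *Rin2* near *Insm1* (log2 difference 1.03), *Wt1* near *Pax6* (-3.33), *Kit* near *Gsx2* (1.06), and *Gcnt3* and *Fam81a* near *Foxb1* (1.31 and 1.19) were in the table. The neighbour of *Insm1* and both neighbours of *Foxb1* thus had the opposite sign to the gene itself, and those of *Pax6* and *Gsx2* the same sign. No listed gene lay within 500 kb of *Neurod1* or *Lhx2*.

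Markers of the labelled cell type and of other cells that a mESC culture could hold were in the table only in part. Of 23 genes of ESCs 6 were listed, with summed levels of 65636 and 66471 normalized counts in NT cells and 111203 and 115646 in the Go6983 samples. *Nanog*, *Tfcp2l1*, *Tbx3*, *Prdm14* and *Klf4* rose and *Utf1* fell. Of 16 endoderm genes only *Cxcr4* was listed (161 and 218 against 489 and 556), and of 15 mesoderm genes only *Kdr* (113 and 121 against 74.7 and 35.3). Of 14 fibroblast genes *Fn1* and *Col1a2* were listed, with sums of 52273 and 47760 against 109338 and 111903, nearly all of it *Fn1*. None of the listed markers was at 0 in a sample. Their part in the values of the 6 genes was not tested.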

How the data were processed

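RNA from 2 NT and 2 Go6983 samples was sequenced by the authors. Bowtie 0.12.2 and mm9 appear in the submitters' processing notes, with the counter, annotation and normalization tool not stated in those or other sources read. The deposited table holds log2 values of normalized counts plus 1 for selected genes. Its columns of group means, fold changes, p-values and FDR, which are the authors' own comparison, were not used. Groups and replicate numbers came from the sample titles.

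The 6 genes and all gene lists were chosen with earlier results of these data known. Differences are Go6983 minus NT group means of the log2 values. For other genes, limma 3.58.1 in R 4.3.3 (lmFit, eBayes with trend, two-sided, Benjamini-Hochberg over 1577 genes) was fitted with group as the only term, and adjusted p-values below 0.05 counted as calls. The fit was also run on simulated counts in which most genes did not change. The deposited genes were all selected as changed, so that run says nothing on the calls made here. Reads were recovered from the log2 values with 1 size factor per library. Replicates of a group differed by more than sampling noise, with a chi-square per gene of 10.5 for NT and 7.36 for Go6983. The replicate numbers were not used as pairs. Levels per kb used the exon lengths of GENCODE M21.

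Named genes were the 6, from each list the 5 with the largest absolute log2 difference whose higher group averaged 50 normalized counts or more (all where a list had 5 or fewer in the table), the 2 nearest patterns of each of the 6 (not given for *Foxb1*), and listed neighbours. *Irx3*, *Gbx2*, *Scrt2*, *Nr2f2*, *Foxd1*, *Foxp2*, *Vgf*, *Syt4*, *Klf4*, *Cplx2*, *Cux2*, *Zfp521*, *Dach1* and *Cadps2* were named after their values were seen. Alternatives changed the added constant (0.1 or 5), the scaling (library sums), the filter (50), the block, the trend, voom on recovered reads, a call at an unadjusted p with a 2-fold difference, and each library in turn. 1 gene of the islet and enteroendocrine list is not reported here.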

Additional observations from a re-analysis of the deposited data

How the results depend on the processing

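None of the 6 genes changed direction with another added constant, library sums, the replicate block or 1 library left out. With 1 library left out at a time, the log2 differences ran from -5.14 to -3.87 for *Insm1*, -2.06 to -1.75 for *Neurod1*, -1.60 to -1.17 for *Pax6*, 1.19 to 1.43 for *Lhx2*, 2.70 to 3.13 for *Gsx2* and -4.64 to -4.35 for *Foxb1*. An added constant of 5 in place of 1 gave 2.62 for *Gsx2* and -2.41 for *Foxb1*, and a constant of 0.1 gave -7.76 for *Foxb1*, as follows for a gene at 0. Scaling by library sums moved the median of all genes by -0.13. Without 1 library, between 431 and 858 genes were called higher and between 260 and 315 lower, with fewer samples in the fit (461 and 431 higher, 288 and 260 lower without Go6983 replicates 1 and 2, and 307 lower without NT replicate 1), and 0 to 2 further neural transcription factors were called higher and 10 to 11 lower. With the filter of 50, 714 were called higher and 325 lower among fewer genes. The replicate numbers did not pair the samples (correlation of deviations 0.0319), and with the replicate block 1070 genes were called higher and 466 lower, and *Scrt2* lost its call (adjusted p = 0.0516). With library sums *Bhlhe22* lost its call (0.0531). The total depth is unknown, and the few reads of *Gsx2* in NT cells and of *Insm1* and *Foxb1* in Go6983-treated cells limit the size of their differences.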

Other observations

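Among 44 other *Hox* and ParaHox genes, 5 were in the table, and 4 rose and 1, *Gsx1*, fell, with a median log2 difference of 1.60, against 68.8% of listed genes called higher, 29.7% lower and a median of 1.21 over all of them. *Cdx1*, a homeobox gene of the posterior epiblast and the intestine, rose from 51.7 and 83.8 normalized counts in the NT samples to 536 and 769.6 in the Go6983 samples, a call that held without any 1 library. *Hoxa2*, *Hoxa3* and *Hoxc4*, which pattern the hindbrain and the neck, had log2 differences of 1.96, 1.53 and 1.60. Their calls were lost without Go6983 replicate 2 (limma adjusted p = 0.0631, 0.0631 and 0.0700), those of *Hoxa2* and *Hoxc4* also without Go6983 replicate 1 (0.0653 and 0.142), and that of *Hoxc4* also without NT replicate 1 (0.104) or 2 (0.0614).

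Of 34 genes of neural progenitors and neurons, 3 were in the table. *Crmp1*, which encodes a collapsin response mediator of axon guidance, fell from 6268 and 6281 normalized counts to 2320 and 2199, and *Stmn3*, a stathmin gene of neurons, rose from 291 and 325 to 681 and 742. *Ncam1*, a neural cell adhesion molecule, went from 972 and 1180 to 1819 and 2776, and lost its call without NT replicate 1 (limma adjusted p = 0.0847), NT replicate 2 (0.0548) or Go6983 replicate 2 (0.0681).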
